A study of Mus musculus with 70 samples.

Results

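The lungs of mice that had breathed air, without silica, were compared between 2 times: 3 months against 1 day after the end of the exposure period. All 12 air libraries of 1 day and all 12 of 3 months were used, 24 of the 70 libraries of the series, and every gene of the count table was eligible. Each library came from a piece of lung of 1 male mouse. The mice descended from heterozygous 129S-Slc26a4tm1Erg/AjgJ parents (the strain field spells it 129S-Slc26Atm1Egr/AjgJ), and were homozygous wildtype (WT, Pds+/+) or homozygous knockout (KO, Pds-/-) for Slc26a4, which encodes the anion exchanger pendrin. The knockout allele is in the germline, so it is carried by every cell and not by lung cells alone. They were about 3 months old when they entered a whole-body inhalation chamber. The air groups breathed air there for 6 hours a day on 4 days. The matching silica groups received 15 mg/m3 of crystalline silica on the same schedule. Each of the 4 air groups held 6 mice: WT and KO at 1 day, WT and KO at 3 months. The labels give no date of death or of library preparation. Age, time since the chamber and any batch that follows the groups therefore cannot be told apart, and the labels do not say whether mice of a group shared a cage or litter.

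The alveolar wall of the mouse lung holds type 1 and type 2 epithelium, capillaries, and fibroblasts that make matrix, with resident macrophages and lymphocytes. Plasma cells secrete antibody, and its polymers are joined by the J chain and carried across epithelium by the polymeric immunoglobulin receptor. The conducting airways are lined by ciliated cells, whose motile cilia are driven by axonemal dynein motors under the transcription factor Foxj1, and by club cells. In RNA from a whole piece of lung, fewer cells of a type and less RNA per cell cannot be told apart.

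Counts per library ranged from 802478 to 4851643 at 1 day and from 1480406 to 5596318 at 3 months. The targeted gene matched its labels: normalised CPM (counts per library put on 1 scale with edgeR's trimmed mean factors) of Slc26a4 was 4.31 to 15.2 in the 12 WT and 0.983 to 3.24 in the 12 KO mice. Its level was 0.58 ± 0.19 higher at 3 months on the log2 scale (± is a standard error for every log2 fold change here), with an adjusted p of 0.143 by edgeR's quasi-likelihood test. Markers of lung were present in both groups: median CPM at 1 day and 3 months was 4638 and 4774 for Sftpc (alveolar type 2 cells), 10180 and 11390 for Scgb1a1 (club cells), 1238 and 1295 for Ager (alveolar type 1 cells), and 944 and 904 for Cdh5 (endothelium). Lars2, which took 4.28% to 11.5% of counts at 1 day and 8.16% to 11.0% at 3 months, was lowest in KO replicates 1, 2 and 3 of 1 day (all under 6%). These 3 libraries also differed from the other 3 of their group by more than the members of either trio differed among themselves, by chi-square per degree of freedom. The WT libraries of 3 months split likewise, replicates 1, 2 and 3 from replicates 4, 5 and 6. Pairs across these trios had 2.50 to 4.13 and pairs within them 1.78 to 2.27. No fit left out either WT trio. KO replicate 3 of 1 day was the shallowest library and stood apart on the first principal component.

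Few genes passed the threshold, and most of these changed by little. With genotype as a block, 117 of 12552 genes tested passed an adjusted p under 0.05 (0.932%), 71 higher at 3 months (0.566%) and 46 lower (0.366%), and 4 of the 117 changed at least 2-fold. By the same edgeR test 1494 genes had an unadjusted p under 0.05, so the 117 need not be every gene that changed. The median absolute log2 fold change was 0.40 among the 117 and 0.0701 over all genes, whose median signed change was 0.00105. Of the 117, the immunoglobulin joining chain Jchain and the transcription factor gene Fos rose most, and the endopeptidase gene Phex and the T cell gene Themis fell most. Only 1 gene, the integrin subunit Itga8, had its 12 values at 3 months entirely on one side of its 12 values at 1 day (0.00797% of genes tested, lower), and 0 genes were entirely higher. Without the 3 KO libraries low in Lars2 the count was 73, of which 58 were among the 117. Without KO replicate 4 of 1 day it was 205. In a model of all 70 libraries with 12 groups it was 15, and 13 of the 117 kept the call, among them Bcl11b, C7, Cep126, Cxcl14, Fos, Gdpd2, Gpt2, Kcnj15, Phex, Ptgs2, Serpina3m and Themis. Jchain and Itga8 did not keep it there, at 1.41 (adjusted p = 0.292) and -0.29 (adjusted p = 0.0789). Genes are named by a rule of size and p, or are said to be named after their values were seen. A value that follows a gene, in brackets or after a verb, is a log2 fold change of 3 months over 1 day with its standard error.

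**Figure D1:**
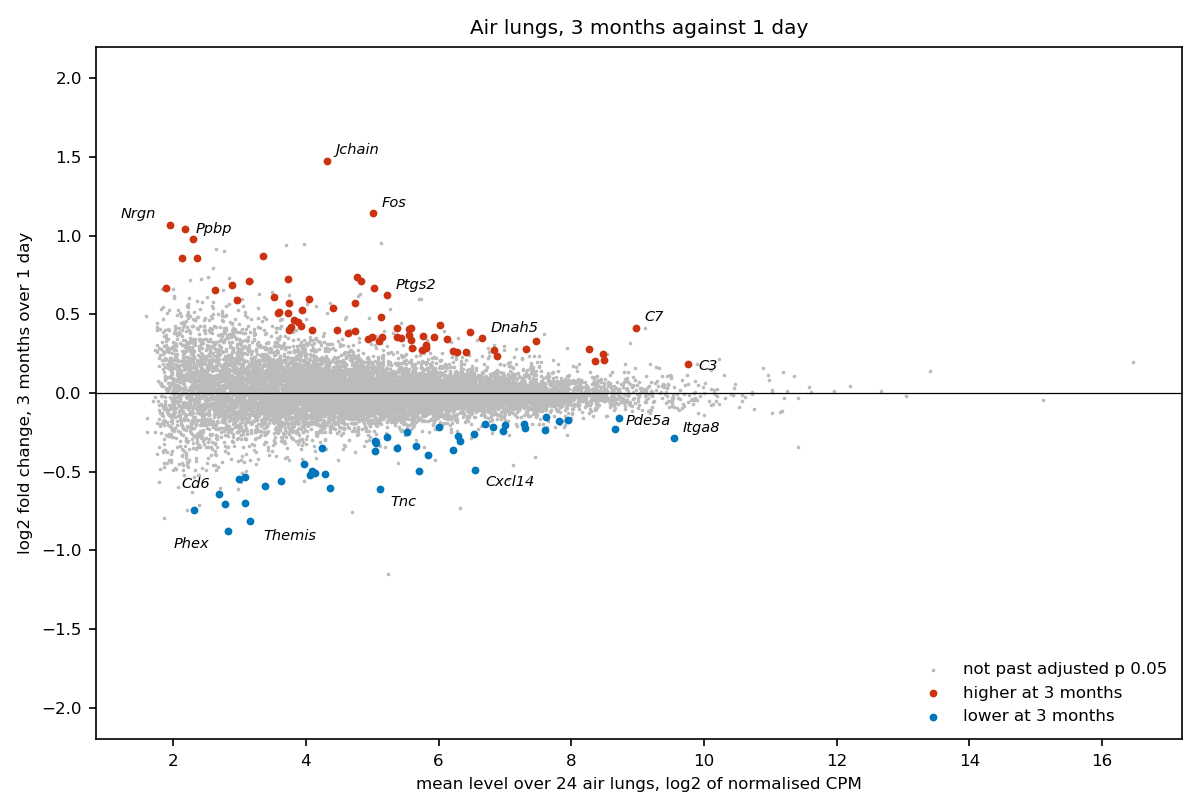
Each point is 1 of 12552 genes tested, with the mean level over the 24 air lungs (log2 of normalised CPM) across and the log2 fold change of 3 months over 1 day upward. Coloured points are the 71 genes higher and 46 lower at 3 months with an adjusted p under 0.05. Most of them lie within 1 log2 unit of no change, and Jchain, at 1.48, is the farthest.

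Jchain (chr5:88519809-88527897, mm10), which links immunoglobulin M and A monomers in plasma cells, rose most of the 117. Its normalised CPM was 6.32, 9.76 and 25.6 (lowest, median, highest of 12) at 1 day and 15.4, 26.9 and 49.9 at 3 months. Of the 12 mice of 3 months, 7 lay above the highest mouse of 1 day and all 12 above its median. The log2 fold change was 1.48 ± 0.19 (edgeR adjusted p = 6.47e-05). Of 16 genes on the plasma cell and immunoglobulin list, 6 were in the count table and 3 passed the low-count filter, Jchain among them. The other 2 did not pass the threshold: Pou2af1 had -0.20 ± 0.17 and Txndc5 -0.03 ± 0.04. Immunoglobulin constant-region genes were not analysed here. Pigr, the epithelial receptor that carries joining-chain-bearing antibody across mucosa, rose from a median of 22.4 to 29.9 CPM (0.57 ± 0.11, adjusted p = 0.00452). Of 13 B cell genes none passed, with a median log2 change of -0.15.

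Part of the T cell list fell. Of 20 genes on the T cell list, 14 passed the low-count filter. Of these, 4 fell and 0 rose, the other 10 did not pass, and all 14 fitted values were below 0, with a median of -0.39 beside 0.00105 over all genes. Themis, a signalling protein of developing and mature T cells, was 7.41, 11.2 and 14.8 CPM at 1 day and 2.56, 6.25 and 13.6 at 3 months. The groups overlapped, and 8 of 12 mice of 3 months lay below the lowest of 1 day. Its log2 fold change was -0.82 ± 0.16 (edgeR adjusted p = 0.00731). The co-receptor genes Cd6 (-0.64 ± 0.14) and Cd8a (-0.55 ± 0.14) and the T lineage transcription factor gene Bcl11b (-0.51 ± 0.11) also fell. The receptor subunits Cd3e, Cd3d and Cd3g had -0.29 ± 0.18, -0.44 ± 0.21 and -0.19 ± 0.16, and Cd4 had -0.37 ± 0.13, none past the threshold. The summed level of the list was 155 to 265 CPM at 1 day and 102 to 175 at 3 months. Without the 3 KO libraries low in Lars2, 2 of the 4 calls remained (Cd6 and Themis).

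Among genes outside that list, Txk, which encodes a kinase that acts below the T cell receptor, fell (-0.74 ± 0.17). Tcf7 (-0.35 ± 0.09), Prkcq (-0.35 ± 0.08), Grap2 (-0.37 ± 0.09) and Dgka (-0.26 ± 0.07), a transcription factor, a kinase, an adaptor and a lipid kinase used by T cells, also fell and were named after their values were seen. Of 4 natural killer and cytotoxic genes tested 0 passed. The leukocyte gene Ptprc had a median of 253 CPM at 1 day and 251 at 3 months. Of the thymocyte list 1 of 6 genes was testable and did not pass, at 0.01.

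Dnah5, Foxj1 and Dynlrb2 of the ciliated airway cells rose. All 15 genes on the ciliated cell list were tested: 3 rose, 0 fell, and all 15 fitted values were above 0 with a median of 0.24. Dnah5 (chr15:28154854-28472045), an outer-arm dynein heavy chain, was 67.3, 91.6 and 103 CPM at 1 day and 96.4, 112 and 140 at 3 months. Of the later mice 9 of 12 exceeded the highest of 1 day, and the log2 fold change was 0.35 ± 0.06 (edgeR adjusted p = 0.0017). Foxj1, the regulator of motile cilia, rose by 0.41 ± 0.10 and the dynein light chain gene Dynlrb2 by 0.51 ± 0.12. The list summed to 613 to 741 CPM at 1 day and 697 to 927 at 3 months. Of its 3 calls Dnah5 and Dynlrb2 remained without the libraries low in Lars2, and 0 in the model of 70 libraries. Dynein heavy chain genes beyond the list, named after their values were seen, also passed: Dnah1 (0.41 ± 0.09), Dnah2 (0.35 ± 0.07) and Dnah10 (0.34 ± 0.07). So did the central-pair gene Hydin (0.26 ± 0.05) and Spef2 (0.39 ± 0.09), named in the same way. Dnah8, also named so, fell, at -0.31 ± 0.07. Of 9 club cell and airway secretory genes 1 rose, the cytochrome Cyp2s1 (0.24 ± 0.05).

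**Figure D2:**
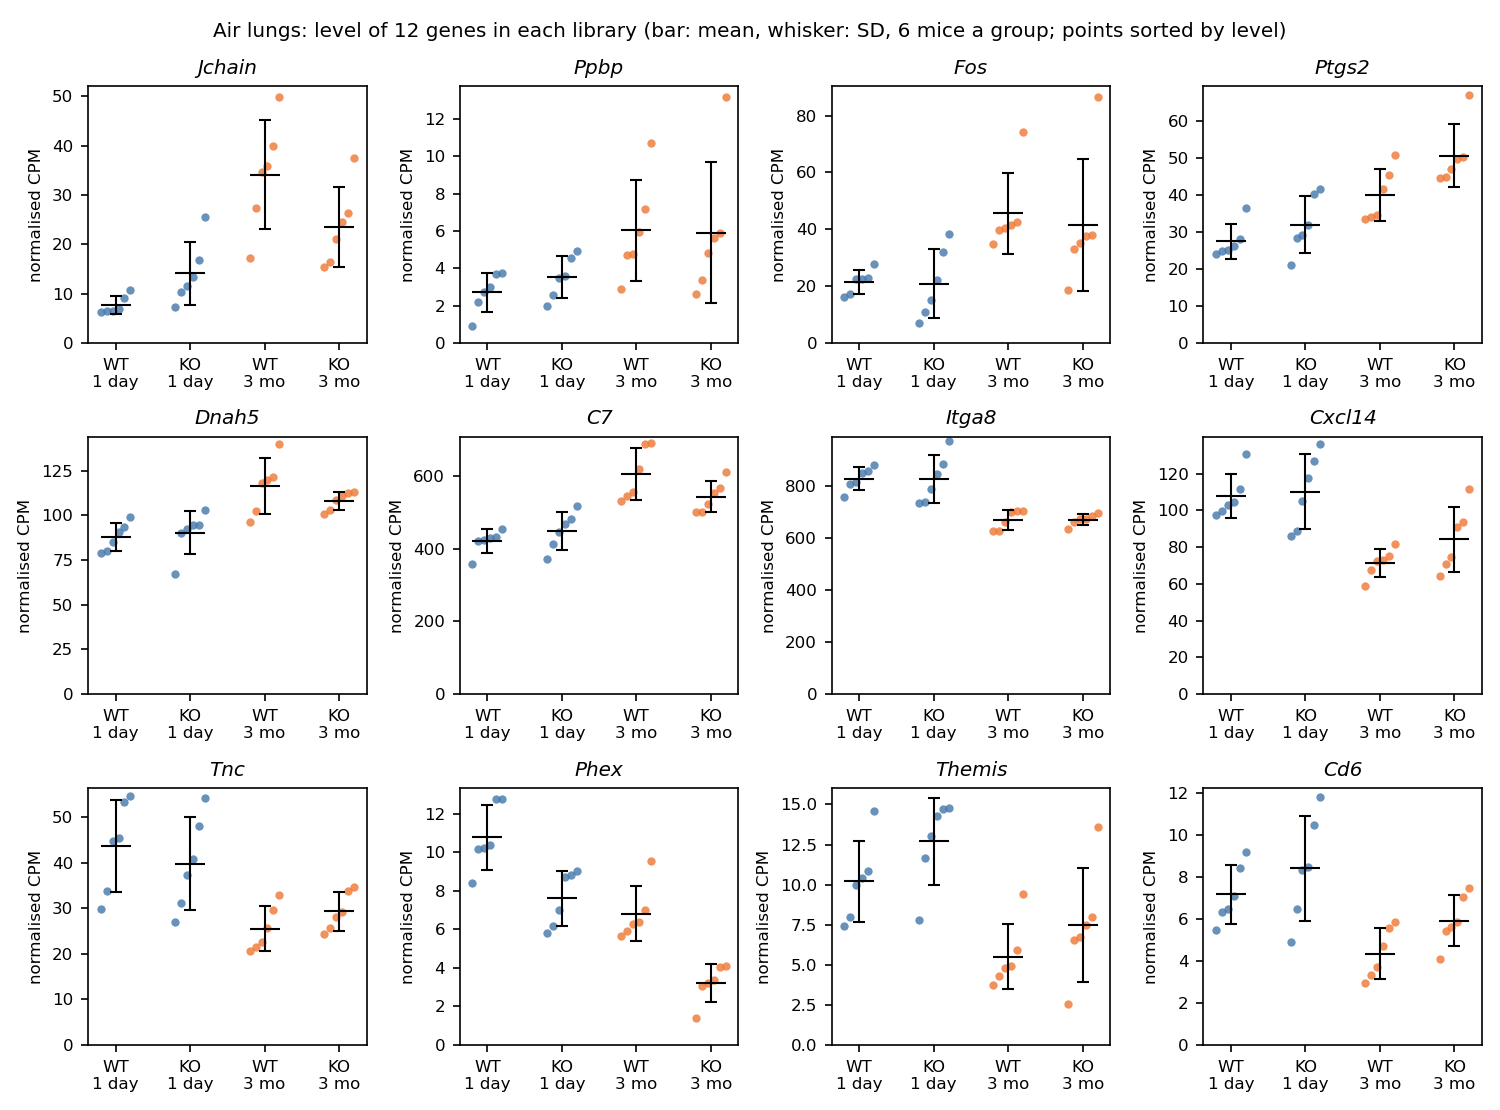
Normalised CPM of 12 genes in each of the 24 air libraries, with WT and KO at 1 day in blue and at 3 months in orange, 6 mice a group. Bars are group means, whiskers SD, and points are sorted by level within a group. Itga8 separates the 2 times completely, and the other 11 genes overlap.

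C7 and 4 of 7 acute phase genes rose by small amounts. C7 (chr15:4987750-5063773), a component of the membrane attack complex, was 357, 431 and 516 CPM at 1 day and 501, 553 and 690 at 3 months. The groups overlapped narrowly, with 10 of 12 later mice above the highest of 1 day. Its log2 fold change was 0.42 ± 0.06 (edgeR adjusted p = 6.47e-05). Of 7 acute phase genes tested 4 rose and 0 fell (median 0.19): the iron-binding Lcn2 (0.37 ± 0.09), complement factor Cfb (0.34 ± 0.09), the copper carrier Cp (0.28 ± 0.06) and C3 (0.19 ± 0.05). Without the libraries low in Lars2, 1 of these 4 calls remained, that of Cp. C3 went from a median of 803 to 896 CPM, with 5 of 12 later mice above all earlier ones. C4b (0.33 ± 0.07) and C6 (0.29 ± 0.06), also of the complement cascade, and the protease inhibitor genes Serpina3m (0.73 ± 0.13) and Serpina3n (0.28 ± 0.05) rose, C4b, C6 and Serpina3n being named after their values were seen. C4b and the Serpina3 genes have near-identical copies that can share reads, so their counts are uncertain.

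Fos and Junb rose among the immediate early genes, which are transcribed within minutes of a stimulus. Of 18 tested, 2 rose, 0 fell and 16 did not pass, with all 18 fitted values above 0 and a median of 0.31. Fos, a subunit of the AP-1 transcription factor, was 6.99, 22.4 and 38.2 CPM at 1 day and 18.8, 38.9 and 86.5 at 3 months. Of the later mice 6 exceeded every earlier one, and the 2 highest values, 74.3 in a WT and 86.5 in a KO mouse, stood apart from their groups. The log2 fold change was 1.14 ± 0.20 (edgeR adjusted p = 0.0017). Junb, its partner, rose by 0.44 ± 0.11, a call lost without the libraries low in Lars2. Egr1 (0.53 ± 0.18), Nr4a1 (0.60 ± 0.18) and Nr4a3 (0.71 ± 0.25), named after their values were seen, did not pass. Ptgs2, the inducible cyclooxygenase gene outside that list, was 21.1, 28.2 and 41.5 CPM at 1 day and 33.5, 45.1 and 67.1 at 3 months, a log2 fold change of 0.62 ± 0.10 (adjusted p = 0.000518) with 9 of 12 later mice above all earlier ones. Of 11 glucocorticoid response genes tested 0 passed.

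No circadian clock gene passed the threshold. Of 19 genes tested, 6 fitted values were above 0 and 13 below. The activator genes Arntl and Clock had 0.61 ± 0.18 (adjusted p = 0.0938) and 0.10 ± 0.05. The output genes Dbp and Hlf, picked after their values were seen, had -1.15 ± 0.33 (adjusted p = 0.079) and -0.76 ± 0.21 (adjusted p = 0.0657). Arntl ranged from 11.1 to 37.9 CPM within 1 day and from 12.3 to 56.4 within 3 months. Arntl passed when 1 of 3 libraries was left out: WT replicate 1 of 1 day (adjusted p = 0.0452), KO replicate 4 of 1 day (0.0485) or KO replicate 5 of 3 months (0.0345). The labels give no hour of death, and its part in the immediate early or clock values was not tested.

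Calr and Pdia6, genes of endoplasmic reticulum chaperones, rose slightly. Of 16 genes of the unfolded protein response 2 rose and 0 fell, with a median of 0.14 and 14 fitted values above 0. Calr, the lectin chaperone calreticulin, went from a median of 327 to 386 CPM (0.25 ± 0.06, edgeR adjusted p = 0.0354). Pdia6, a disulfide isomerase, went from 106 to 122 (0.27 ± 0.06, adjusted p = 0.0215). Of these 2 calls, that of Pdia6 remained without the libraries low in Lars2. Pdia3, its relative outside the list, rose by 0.20 ± 0.04 and was named after its values were seen. Promoters are shown for Calr, Pdia6 and Fos, chosen after their values were seen. Their lists were scanned, on both strands, for a motif known from such genes, and motifs not given here were not scanned. The 250 bases before each RefSeq start (GRCm38.p6, the mm10 assembly) are printed 5′ to 3′ on the gene's strand, with matches in capitals. For Calr, at chr8:84846932-84847181 on the minus strand, and Pdia6, at chr12:17266339-17266588 on the plus strand, the capitals mark the endoplasmic reticulum stress element (CCAAT and CCACG separated by any 9 bases), which in Calr reads on the opposite strand. For Fos, at chr12:85473640-85473889 on the plus strand, they mark TGACG, the core of the cyclic AMP response element TGACGTCA.
Calr: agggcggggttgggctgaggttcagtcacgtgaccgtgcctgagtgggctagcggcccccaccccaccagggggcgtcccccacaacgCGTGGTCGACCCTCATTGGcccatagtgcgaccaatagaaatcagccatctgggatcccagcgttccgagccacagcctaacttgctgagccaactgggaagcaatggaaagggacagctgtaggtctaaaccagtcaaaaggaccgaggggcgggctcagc
Pdia6: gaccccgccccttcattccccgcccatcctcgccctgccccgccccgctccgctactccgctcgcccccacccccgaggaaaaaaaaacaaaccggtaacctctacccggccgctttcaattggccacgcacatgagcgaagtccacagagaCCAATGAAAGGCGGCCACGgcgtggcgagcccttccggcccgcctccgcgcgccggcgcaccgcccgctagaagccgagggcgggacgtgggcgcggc
Fos: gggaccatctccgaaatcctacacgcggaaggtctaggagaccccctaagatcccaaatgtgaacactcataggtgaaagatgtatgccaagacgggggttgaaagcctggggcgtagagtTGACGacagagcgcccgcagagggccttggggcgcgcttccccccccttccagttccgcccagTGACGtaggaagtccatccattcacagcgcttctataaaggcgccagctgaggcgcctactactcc

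The stress element was in 37 of 32851 mouse promoters of this length (0.113%). Counted by gene, as the lists are, it was in 35 of 27025 (0.13%). It lay in 5 of the 14 tested unfolded protein response genes that had a promoter, Hspa5, Hsp90b1, Pdia6, Calr and Creld2. Their log2 fold changes were 0.25, 0.19, 0.27, 0.25 and 0.31, and Hspa5, Hsp90b1 and Creld2 did not pass (adjusted p of 0.092, 0.092 and 0.167). TGACG was common, in 17.8% of promoters and 19.8% of genes, and in 11 of the 15 tested immediate early genes that had a promoter. The full TGACGTCA, which contains it, was in 1.55% of promoters and 1.77% of genes, and in 2 of those 15, Dusp1 and Btg2. Matches are descriptions of sequence and not evidence of binding.

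The platelet genes Ppbp and Tubb1 and a pair of linker histone genes rose. Of 4 platelet genes tested 2 rose and 0 fell: Ppbp, a chemokine stored in platelets (1.04 ± 0.23, adjusted p = 0.0197), and Tubb1, the platelet tubulin (0.71 ± 0.16, adjusted p = 0.0191). Ppbp was 0.927, 3.26 and 4.92 CPM at 1 day and 2.63, 5.22 and 13.2 at 3 months, so that the groups overlapped. Of 9 replication histone genes 2 rose and 0 fell, the linker histones Hist1h1d (0.60 ± 0.12) and Hist1h1e (0.34 ± 0.06), while 0 of 14 cell division genes passed. Erythroid genes, which also come with blood, had 0 of 5 past the threshold and summed to 336 to 1266 CPM at 1 day and 371 to 1335 at 3 months. The spliceosomal RNA Rnu11 (0.74 ± 0.17) and the vault RNA Vaultrc5 (0.71 ± 0.16), named for the size of their change, rose as well. Neither is on the list of structural and nuclear noncoding RNA, of which 0 of 8 tested genes passed, with a median of 0.14.

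Itga8, Tnc and Cxcl14 fell. Itga8 (chr2:12106632-12301985), the alpha 8 integrin of alveolar fibroblasts and pericytes, was 734, 830 and 971 CPM at 1 day and 626, 672 and 705 at 3 months. Every mouse of 3 months lay below every mouse of 1 day, in both genotypes. The log2 fold change was -0.29 ± 0.04 (edgeR adjusted p = 6.47e-05). Tnc, the matrix glycoprotein tenascin C of growing and repairing tissue, was 27.1, 42.9 and 54.7 CPM at 1 day and 20.7, 27.0 and 34.8 at 3 months (-0.61 ± 0.11, adjusted p = 0.0017). It was the 1 gene past the threshold among 26 elastic fibre and matrix genes. Cxcl14, a chemokine, fell from a median of 105 to 73.8 CPM, with 9 of 12 later mice below all earlier ones (-0.49 ± 0.08, adjusted p = 0.000702).

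No collagen gene passed the threshold. Of 17 tested 0 passed, 15 fitted values were below 0, and the median was -0.14. Col1a1 and Col1a2, the chains of type I collagen, had -0.20 ± 0.12 and -0.15 ± 0.07. Of 11 fibroblast genes and 14 smooth muscle and pericyte genes 0 passed, with medians of -0.06 and -0.08. The adhesion gene Mcam (-0.24 ± 0.04) and the cadherin gene Dchs1 (-0.40 ± 0.07) fell. So did Pde5a, the cyclic GMP phosphodiesterase of vascular muscle (-0.23 ± 0.05), the laminin chain Lama2 (-0.18 ± 0.04) and the calcium channel gene Cacna1c (-0.20 ± 0.05), the last 3 named after their values were seen.

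**Figure D3:**
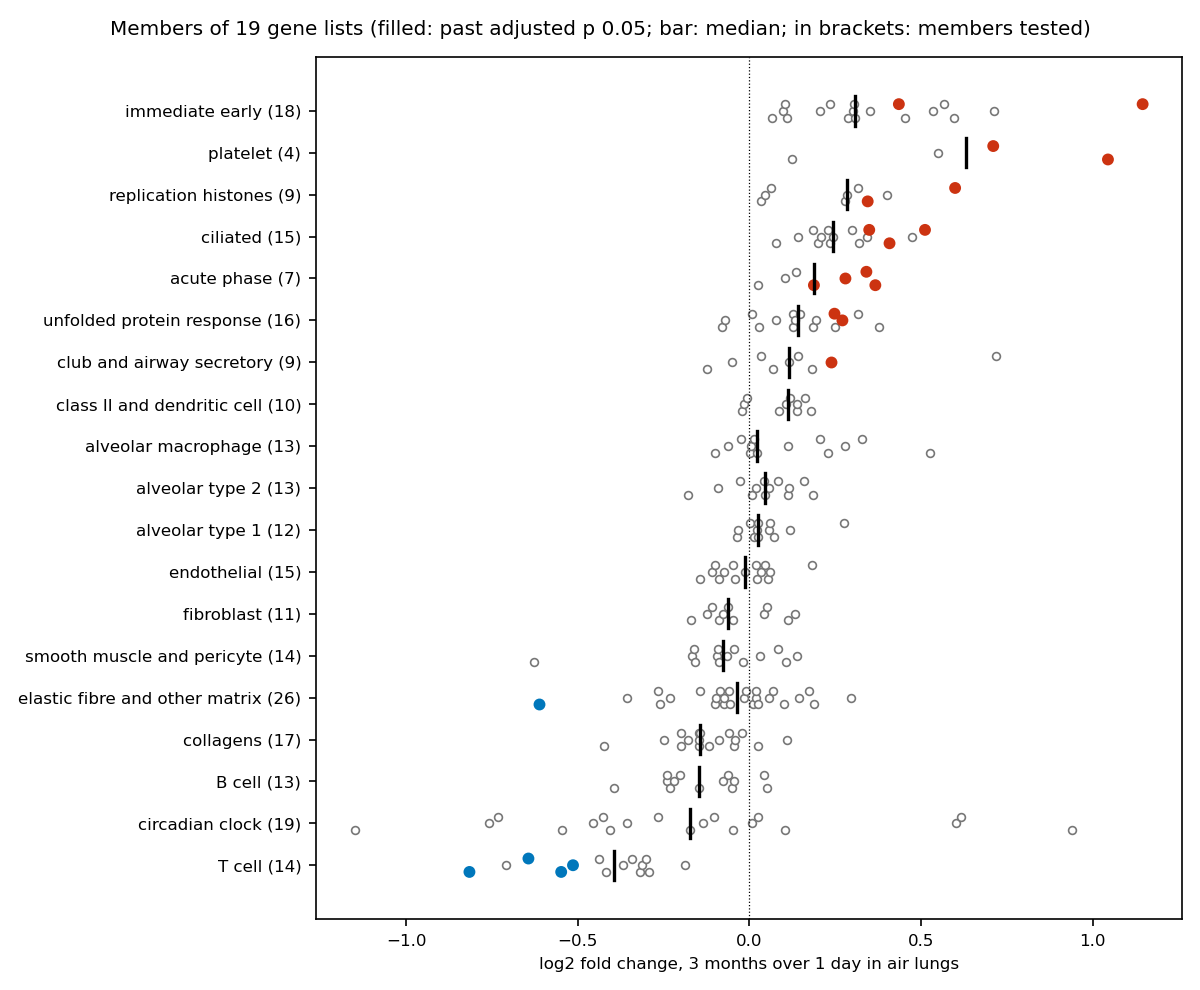
Each point is a tested member of 1 of 19 gene lists, placed by its log2 fold change of 3 months over 1 day in air lungs. Filled points passed an adjusted p under 0.05 (red higher, blue lower), black bars are list medians, and brackets hold the number tested. The T cell median, -0.39, and the platelet median, 0.63, lie farthest from 0 among the lists drawn.

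Phex (chrX:157162075-157415286), an endopeptidase best known from bone, fell most of the genes past the threshold. It was 5.83, 8.94 and 12.8 CPM at 1 day and 1.41, 4.87 and 9.57 at 3 months, with 7 of 12 later mice below all earlier ones (-0.88 ± 0.14, edgeR adjusted p = 0.000805). Rbm3, the cold-inducible RNA-binding protein gene, fell by 0.36 on the log2 scale (standard error 0.07) and was the 1 gene past the threshold of 14 heat shock and cold-inducible genes. Cd38, an NAD-consuming ectoenzyme, had -0.33 ± 0.06, with 10 of 12 later mice below all earlier ones. Among the increases, Kcnj15, a potassium channel gene, went from a median of 75.3 to 99.8 CPM (0.39 ± 0.06, adjusted p = 0.000805). Hdc, which makes histamine, rose by 0.36 ± 0.06, while the 1 testable mast cell and basophil gene did not pass. Wnt2b, a secreted Wnt ligand, rose by 0.86 ± 0.19, and Apoe, the 1 of 13 interstitial macrophage genes to pass, by 0.21 ± 0.05. The calls of Wnt2b, Apoe and Cyp2s1 were lost without the libraries low in Lars2.

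Several other large changes were of genes with low levels. Nrgn, a calmodulin-binding protein gene, was 1.29, 2.73 and 4.42 CPM at 1 day and 1.36, 5.49 and 9.81 at 3 months (1.07 ± 0.24, adjusted p = 0.0197), and 9 of 12 later mice were above all earlier ones. Gdpd2, a glycerophosphodiesterase gene, went from a median of 7.52 to 13.8 CPM (0.87 ± 0.17, adjusted p = 0.00452). Ces1f, a carboxylesterase gene with near-identical neighbours, was the 1 gene of 18 xenobiotic enzyme genes to pass (0.86 ± 0.22, adjusted p = 0.0421), and it lost the call without the libraries low in Lars2. Of the decreases, Ryr3, an intracellular calcium release channel, went from a median of 12.5 to 7.58 CPM (-0.59 ± 0.14). Atp1a4, a sodium pump subunit, went from 10.8 to 6.99 (-0.70 ± 0.15), and Slc27a6, a fatty acid transporter, from 9.60 to 6.76 (-0.53 ± 0.13). The secreted signals Spp1 (osteopontin, 0.48 ± 0.12), Penk (proenkephalin, 0.66 ± 0.15) and Il33 (an alarmin cytokine, 0.27 ± 0.07) rose too, and were named after their values were seen. Median Spp1 went from 30.2 to 40.0 CPM and median Il33 from 70.3 to 81.4, with 5 and 9 of 12 later mice above all earlier ones. Among the genes given values so far, Txk, Grap2, Dnah8, Rnu11, Vaultrc5, Pde5a, Lama2, Cacna1c, Nrgn, Ryr3, Atp1a4, Spp1 and Penk also lost the call without the 3 libraries low in Lars2. The call of Ppbp was lost without WT replicate 2 of 3 months, that of Ryr3 without WT replicate 3 of 1 day, and those of Rnu11 and Vaultrc5 without WT replicate 3 of 3 months. Those of Dynlrb2 and Spef2 were each lost without WT replicate 2 of 1 day or 1 other library. Other calls were lost more often when each of the 24 libraries was left out in turn. C3 lost it in 18 of these fits, Ces1f in 17, Lcn2 in 16, Cfb and Cacna1c in 15, Tcf7 in 14, and Cd8a, Dgka and Calr in 13. Spp1 lost it in 11, Junb in 10, Il33 in 9, Grap2 in 7, Foxj1, Dnah8 and Penk in 5, Apoe, Nrgn and Slc27a6 in 3, and Txk in 2.

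Alveolar and vascular cell markers did not pass the threshold. Of 13 alveolar type 2, 12 alveolar type 1, 15 endothelial and 13 alveolar macrophage genes 0 passed, with medians of 0.04, 0.03, -0.01 and 0.02. No gene passed among 10 class II and dendritic cell, 14 interferon-stimulated, 19 respiratory chain, 20 ribosomal protein or 19 cholesterol synthesis genes. Rpl36, outside the ribosomal list and named after its values were seen, fell (-0.50 ± 0.12), and it has processed copies that can share reads. Its call was lost without the libraries low in Lars2 and in 13 of the 24 fits that left out 1 library. For tissue beside the lung, 0 of 7 fat cell genes passed but all 7 fitted values were above 0, with a median of 0.43. The fat list summed to 80.5 to 121 CPM at 1 day and 83.5 to 439 at 3 months. The heart muscle list summed to 485 to 1210 and 392 to 1504 CPM, with 0 of 11 past the threshold. The part of other tissue in the changes above was not tested.

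No gene's change over time was found to differ between the genotypes. All 117 had the same fitted direction in WT and KO lungs. They were chosen by a fit to both genotypes together, so this agreement is no test of a genotype difference. Taken alone, WT lungs gave 60 genes past the threshold (0.478%), 43 higher (0.343%) and 17 lower (0.135%), and KO lungs gave 1 (0.00797%), Phex. A test of the difference between genotypes found 0 of 12552 genes by edgeR (0%), with 756 at an unadjusted p under 0.05, and 0 by the DESeq2 Wald test. Jchain was at 7.71 ± 1.84 CPM (SD, n = 6) at 1 day and 34.2 ± 11.1 at 3 months in WT lungs, and at 14.2 ± 6.41 and 23.5 ± 8.13 in KO lungs. The log2 fold changes were 2.07 (adjusted p = 7.39e-07) and 0.75 (adjusted p = 0.46), and their difference was -1.32 ± 0.34 (edgeR adjusted p = 0.466). Phex was at 10.8 ± 1.69 and 6.80 ± 1.43 CPM (SD, n = 6) in WT and at 7.61 ± 1.45 and 3.20 ± 0.981 in KO lungs, with a difference between log2 fold changes of -0.65 ± 0.29 (edgeR adjusted p = 0.784). The smallest adjusted p of the difference over all genes was 0.408, for Garnl3 (0.32 in WT and -0.64 in KO) and Nes (-0.29 and 0.15). The KO group of 1 day holds the 3 libraries low in Lars2, and without them KO lungs gave 0 genes and WT lungs 77.

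Silica-exposed lungs of the same interval share no library with the air lungs, and gave 393 of 12571 genes past the threshold (3.13%), 229 higher (1.82%) and 164 lower (1.3%). Of the 117 genes of air lungs 113 were also tested there, and 103 had the same direction. The share with the same direction over all genes was not computed, so no background stands beside it. The overlap was 38 genes called in the same direction, 33.6% of the 113 and 9.67% of the 393, and 0 were called in the opposite one. The pair of comparisons may still share library batches. Jchain rose by 3.00 ± 0.39 in silica lungs, from a median of 8.77 to 41.8 CPM. Shared decreases were Phex (-0.89), Itga8 (-0.37) and Cxcl14 (-0.42), and shared increases C7 (0.33), C4b (0.54), Pigr (0.62) and the centrosomal gene Cep126 (0.53). The ciliated list had a median of 0.32 in silica lungs, beside 0.24 in air lungs, and the T cell list -0.14 beside -0.39.

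The change over time itself differed between air and silica lungs for 21 of 12941 genes (0.162%), 6 more positive in air (0.0464%) and 15 more negative (0.116%). Ptgs2 was the 1 gene of the 117 among them: it rose in air lungs (0.62 ± 0.10) and had -0.26 ± 0.15 in silica lungs, a difference of 0.88 ± 0.18 (edgeR adjusted p = 0.0145). Its medians after silica were 50.7 CPM at 1 day and 44.6 at 3 months. Ppbp and Tubb1 had -0.18 ± 0.31 and -0.36 ± 0.26 in silica lungs, but their differences of 1.20 ± 0.41 and 1.07 ± 0.30 did not pass (adjusted p of 0.331 and 0.161). A refit without the 3 KO libraries low in Lars2 called 8 genes, and how many of the 21 were among them was not recorded.

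**Figure D4:**
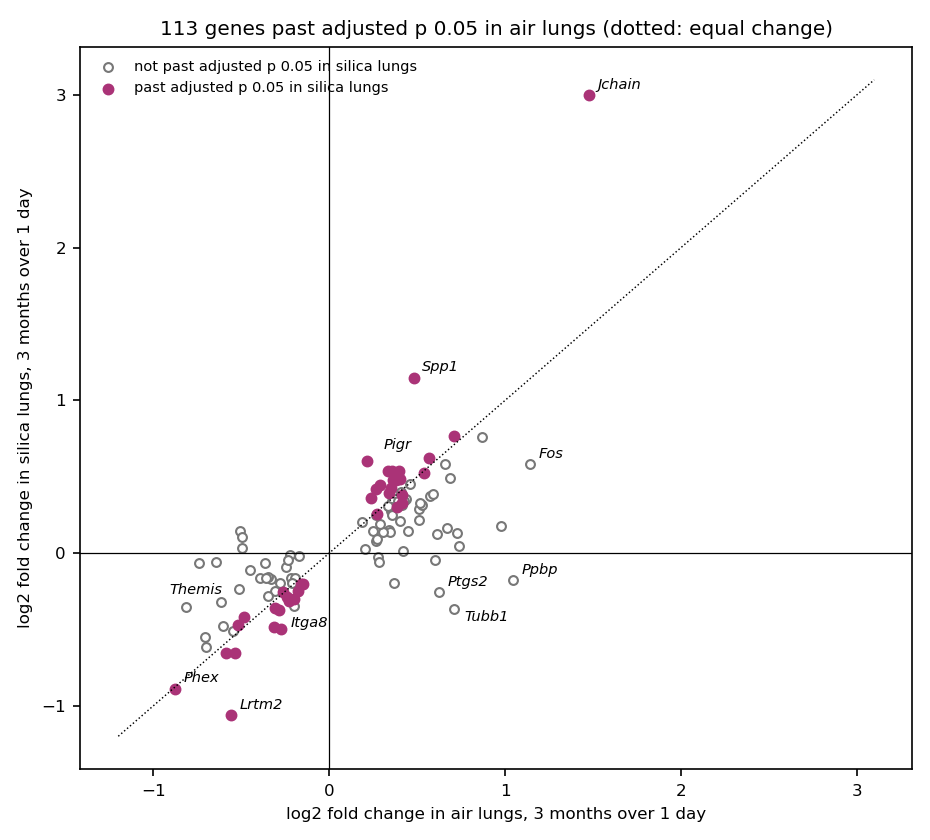
The 113 genes past the threshold in air lungs that were also tested in silica lungs, by log2 fold change of 3 months over 1 day in air (across) and in silica lungs (upward). Filled points, 38 of them, also passed an adjusted p under 0.05 in silica lungs, and the dotted line marks equal change. Jchain lies above that line, and Ptgs2, Ppbp and Tubb1 lie below 0 in silica lungs.

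The 11 air lungs of 9 months placed these genes at a later age. The comparison of 9 with 3 months shares the 3-month libraries, so its values are given beside the first and not as a test of it. It called 3845 of 12919 genes (29.8%), and 9 months against 1 day called 4663 (36.1%). In 2 of the 6 KO air libraries of 9 months, those labelled KO replicates 4 and 5, Slc26a4 was high, at 50.5 and 16.4 CPM. The other 4 had 1.31 to 3.74, the 12 younger air KO mice at most 3.24, and the 5 WT air mice of 9 months 6.30 to 72.6. KO lungs exposed to silica had 3.39 to 35.7 CPM, a range that holds the 16.4 but not the 50.5. Whether the 2 labels are right was not tested. Without the libraries labelled KO replicates 4 and 5 the counts were 3128 and 3981, an alternative chosen after seeing the data. Each fold change below is given with its range when each 9-month library was left out.

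Jchain was higher again at 9 months, with 41.4, 101 and 738 CPM (lowest, median, highest) and a log2 change of 2.59 from 3 months (1.92 to 2.70). Of the 11 mice, 9 lay above the highest of 3 months. Without the libraries labelled KO replicates 4 and 5 the median of Jchain was 60.7 CPM, its change 2.51, and 7 of 9 mice lay above. Pigr had a change of 1.55 to 1.89 as libraries were left out, Dnah5 of 0.71 (0.60 to 0.76) and C3 of 0.88 (0.58 to 0.93). The median C3 level was 1148 CPM and the highest 5000. Without both libraries the C3 change was 0.52 and the highest level 2284 CPM, and Pigr and Dnah5 changed by 1.52 and 0.75. Itga8 was lower again, with 246, 472 and 578 CPM and a change of -0.54 (-0.59 to -0.48), its highest mouse below the lowest of 3 months. Cxcl14 changed by -0.50 (-0.57 to -0.44). Without both libraries these changes were -0.47 and -0.58. C7 and Fos went the other way, by -0.21 (-0.25 to -0.19) and -0.73 (-0.81 to -0.67), and by -0.20 and -0.83 without both libraries. Fos had a median of 23.1 CPM at 9 months beside 22.4 at 1 day and 38.9 at 3 months. The ciliated list had a median change of 0.63, the T cell list of -0.11 and the immediate early list of -0.37, which were 0.60, -0.14 and -0.31 without both libraries.

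**Figure D5:**
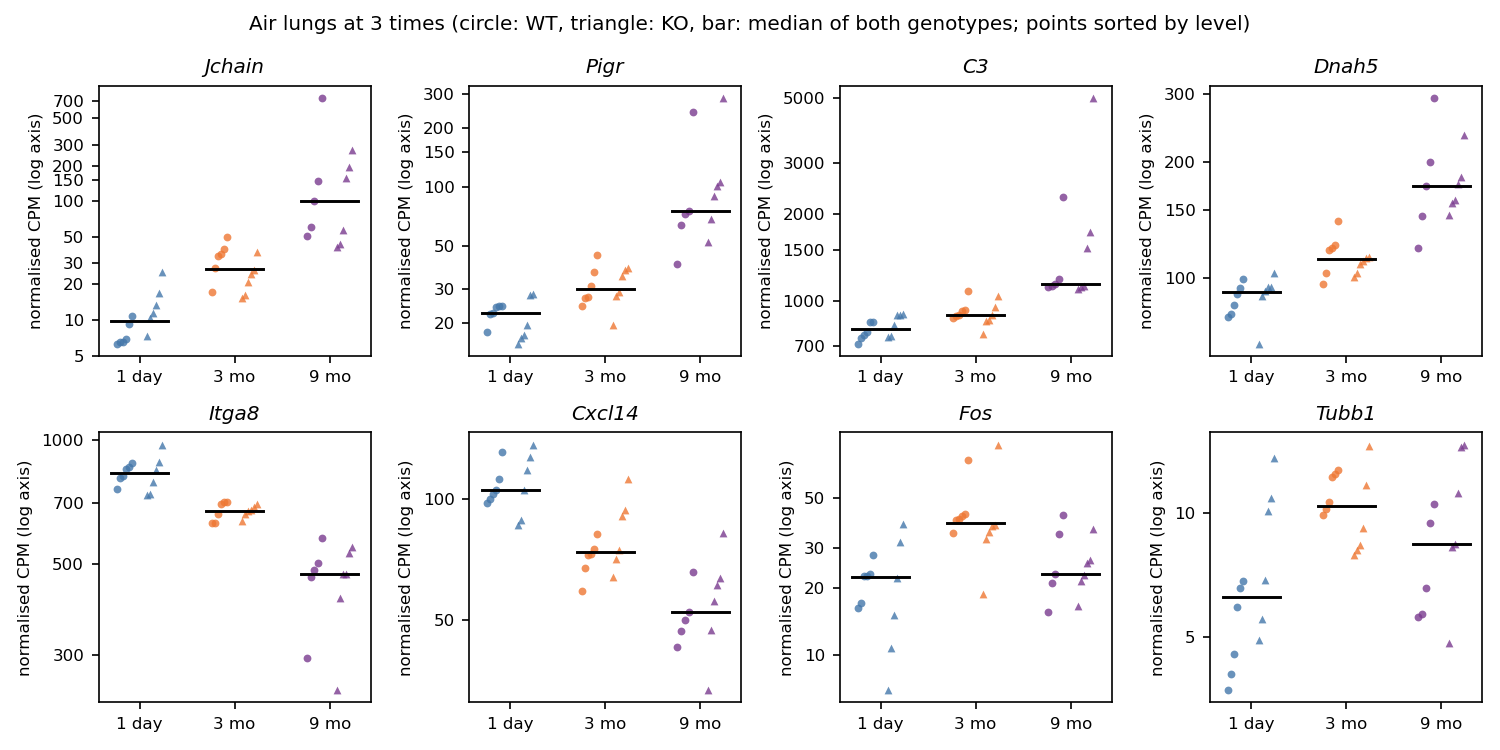
Normalised CPM (log axis) of 8 genes in the air lungs of 1 day, 3 months and 9 months, 12, 12 and 11 mice. Circles are WT, triangles KO, bars the median of both genotypes, and points are sorted by level. Jchain, Pigr, C3 and Dnah5 medians are higher at each later time, Itga8 and Cxcl14 medians lower, and the Fos median is highest at 3 months.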

How the data were processed

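Lung RNA of 70 mice was measured as raw read counts per gene in 1 table deposited by the authors. Per the submitters' processing notes, the tools used with the mm10 build include HISAT2 2.1.0, HTSeq 0.11.2, Trimmomatic 0.35, SAMtools 1.8, bcl2fastq 2.19 and Cufflinks, with no role or order given. The annotation and strand setting are not given in the sources used here, so overlapping and antisense genes may share reads. Per the labels' protocols, total RNA was depleted of ribosomal RNA and made into TruSeq Stranded libraries with 12 cycles of amplification. The table had 24439 rows, of which 16 repeated a gene and its counts and were dropped, leaving 24423 genes.

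The 24 air libraries were fitted in R 4.3.3 with edgeR 4.0.16 (filterByExpr, TMM, quasi-likelihood F test, genotype plus time), with Benjamini-Hochberg adjustment over all genes tested. Contrasts per genotype and their difference used 4 groups, time by exposure 8 groups, and the 9-month contrasts 35 air libraries. Each standard error is an approximation, the size of the log2 fold change divided by the root of its F statistic. Normalised CPM used the factors of all 70 libraries. The script was tested on simulated data. Alternatives used limma 3.58.1 (voom), DESeq2 1.42.0 and sva 3.50.0, and figures used matplotlib 3.10.9 in Python 3.11.15 with pandas 2.3.3. Gene positions and promoters are from RefSeq (GRCm38.p6).

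Named genes were the 15 largest changes and 10 smallest p in each direction past an adjusted p of 0.05 with a mean of at least 1 CPM. Up to 4 members past the threshold, or the first 2 tested, came from each of 50 gene lists, and the 5 smallest p in each direction (or 3 where none passed) from the tests of difference. The members, lists and tests were chosen with earlier results of these data known. Replicates are separate mice per their labels, none pairs by design, and no 2 libraries of a group agreed within counting noise (chi-square per degree of freedom of 1.50 to 5.21). Not every gene the rule named is described, and 1 of them is not reported here.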

Additional observations from a re-analysis of the deposited data

Results flagged for a closer look

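Of 160 groups of 6 air mice, from 40 genes, 15 held a mouse whose level lay far from the other 5 by Dixon's test, where chance gives about 1 in 20. High mice at 3 months were Fos in WT replicate 1 (74.29 CPM) and KO replicate 5 (86.45), Ptgs2 in KO replicate 5 (67.14), Ppbp in KO replicate 1 (13.16), Cp in KO replicate 1 (410.2), Phex in WT replicate 6 (9.569), and C3 (1083) and Apoe (472.7) in WT replicate 4. Low mice at 3 months were Lcn2 in WT replicate 4 (42.49) and Hist1h1e in KO replicate 4 (60.41). At 1 day, Ptgs2 in WT replicate 6 (36.6) and Hist1h1d in WT replicate 1 (18.07) were high, and Dnah5 (67.31) and Pdia3 (264.8) in KO replicate 5 and C7 in WT replicate 4 (357.2) were low.

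The change over time differed between air and silica lungs, by edgeR's test of the difference itself, for 21 genes, of which the 5 with the smallest p in each direction are given as the log2 change in air minus that in silica. It was negative for Ctsk, a cathepsin of macrophages and osteoclasts (-1.371), the antigen-presentation genes H2-Eb1 (-0.578), Ly75 (-0.8107) and Wdfy4 (-0.6682), and Sept3 (-1.52). It was positive for the cyclooxygenase gene Ptgs2 (0.8831), the coagulation factor gene F10 (0.847), D17H6S56E-5 (0.7337), Bcan (1.233) and Pcsk6 (0.8472). Of these 10 genes Ptgs2 also passed the test of time in air lungs.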

How the results depend on the processing

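Over 11 alternatives and each of the 24 libraries left out, none of the 117 genes changed direction, and 11 passed throughout, among them C7, Cep126, Cxcl14, Fos, Gdpd2, Kcnj15, Phex, Ptgs2, Serpina3m and Themis. The median of all genes stayed within -0.00263 to 0.00384. The count of 117 became 187 with voom quality weights, 15 with all 70 libraries and 73 without the 3 libraries low in Lars2, an alternative added after seeing the data; leaving out 1 library gave 80 to 205. The 60 of WT became 116 with voom weights, 106 with 1 surrogate variable and 4 with all 70 libraries, and 24 to 99 with 1 library left out. The 1 of KO became 4 without a low-count filter and 0 with voom weights, 1 surrogate variable, library size as a covariate, all 70 libraries, or without the 3 libraries, and 0 to 4 with 1 left out. The difference between genotypes gave 0 throughout, except 1 without WT replicate 3 of 1 day (range 0 to 1). The 393 of silica lungs became 245 with 1 surrogate variable, and 292 to 533 with 1 left out. The 21 for time by exposure became 10 with all 70 libraries and 8 without the 3, and 12 to 27 with 1 left out. The cause of these shifts was not tested. The 9-month counts ranged from 3383 to 3991 against 3 months and from 4260 to 4778 against 1 day. No paired analysis was possible because each mouse carries its own number and none recurs across groups. The shallowest library held 802478 counts. With library size as a covariate the count was 98, of which 97 were among the 117, and no fit was made on counts thinned to equal depth.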
